A study of Homo sapiens with 6 samples.

Results

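The nuclear-encoded respiratory chain genes are the chromosomal genes for the subunits of the mitochondrial complexes I to V. They were chosen by symbol: those starting with NDUFA, NDUFB, NDUFC, NDUFS, NDUFV, SDHA to SDHD, UQCR, COX4 to COX8 or ATP5, measured on probe sets that carry that symbol alone. Of 90 symbols that met these prefixes, 1 pseudogene was left out, which gave 89 members among 18701 genes. They comprised 81 subunits (35 of complex I, 4 of complex II, 7 of complex III, 19 of complex IV and 16 of complex V) and 8 genes that share a prefix but are no subunits. Those 8 are the assembly factors NDUFAF1 to NDUFAF4 and SDHAF2, and COX4NB, ATP5S and ATP5SL, now named EMC8, DMAC2L and DMAC2. Subunit NDUFA4 was counted with complex IV, to which it is now assigned. The 19 of complex IV also include COX7A2L, a factor related to COX7A that joins complexes III and IV. A filter on dim genes (mean log2 signal of 3.62 or less, the lowest 25% of genes) kept 86 members and left out the tissue-restricted COX6B2, COX7B2 and COX8C.

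Complexes I to IV of the inner mitochondrial membrane pass electrons from NADH and succinate to oxygen, and complexes I, III and IV pump protons as they do so. Complex V, the ATP synthase, lets the protons flow back through a ring of c subunits in its membrane part (Fo) and makes ATP in its catalytic head (F1). Most subunits are encoded in the nucleus, many under the transcription factors NRF1 and GABP, and tumour cell lines differ widely in how far they rely on the chain. The tumour suppressor p53 is known to act on respiration through single genes, among them SCO2, a complex IV assembly factor.

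The cells were HT29-tsp53, a derivative of the human colorectal adenocarcinoma line HT-29 with a temperature-sensitive mouse p53 transgene (V135A), which all 3 groups carried. The group with p53 off stayed at the restrictive temperature, given as 38 °C in some labels and 37 °C in others. The group with p53 on spent 16 h at 32 °C, and the group with p53 on then off had 6 h of recovery after those 16 h, although 1 label field of the recovery samples names 32 °C for it. Each group had 2 arrays (Affymetrix Human Gene 1.0 ST), numbered as experiment 1 and experiment 2. The labels describe dishes of cells but do not say what was separate between the experiments, so p-values measure the spread between these arrays, which may be technical. No culture without the transgene was analysed here, so p53 activity and temperature cannot be told apart. In bulk RNA, fewer cells of a kind and less RNA per cell cannot be told apart either.

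The labels held for known p53 targets: CDKN1A, the cell cycle inhibitor p21, was higher by 3.21 log2 units with p53 on than with p53 off (limma, adjusted p = 0.00334), and MDM2, which degrades p53, was higher by 3.52 (limma, adjusted p = 0.00174). Above the dim filter were 11 of 12 colon epithelium markers (all but CDH17), 3 of 5 leukocyte markers, 5 of 7 fibroblast markers and 5 of 6 muscle markers. Among the leukocyte markers LYZ, which intestinal epithelium also makes, had log2 signals of 10.81 to 11.52, CD68 5.72 to 6.65 and ITGAM 5.04 to 5.46, while PTPRC and CD3E lay below the filter, as did the fibroblast markers DCN and LUM and the muscle marker MYH2. The median over the list on each array was 8.70 to 9.57 for colon epithelium, 3.65 to 4.21 for fibroblast and 3.86 to 4.64 for muscle markers, with the filter at 3.62. The dishes held a single cell line, so passing this filter does not show that other cell types were present. The source of these marker signals was not tested. Each gene value is the median log2 signal of its probe sets, over a median of 6 probe sets per member (1 to 21). Levels of different genes are not compared, since probe sets differ in brightness. Log2 signals and log2 differences below are given in the order experiment 1, then experiment 2, and the error beside a difference is limma's standard error (n = 2 arrays in each group). For differences between p53 states this error comes from the fit that does not pair arrays by experiment. It therefore also holds the shift between the experiments.

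Promoters of 3 members are shown because their transcripts carry the results below: NDUFV3 passed a test, NDUFA12 was the subunit farthest below p53 off after recovery, and UQCRH had one of the largest differences between the experiments. Each is the 150 bases before the annotated start, 5′ to 3′ on the gene's strand, from RefSeq (GRCh38.p14). Capitals mark a match to the NRF1 motif (GCGC, then A and any base, then GCGC) in NDUFA12, with its first base 116 bases before the start, and to the ETS core CCGGAAG on the opposite strand in UQCRH, with its first base 46 bases before the start.
NDUFV3, chr21:42893159-42893308, plus strand: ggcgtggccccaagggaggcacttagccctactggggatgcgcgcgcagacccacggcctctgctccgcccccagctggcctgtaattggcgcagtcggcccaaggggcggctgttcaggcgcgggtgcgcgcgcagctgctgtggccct
NDUFA12, chr12:95003698-95003847, minus strand: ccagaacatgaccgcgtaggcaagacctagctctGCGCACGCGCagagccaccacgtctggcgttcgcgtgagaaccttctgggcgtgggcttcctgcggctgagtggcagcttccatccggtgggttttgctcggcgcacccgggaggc
UQCRH, chr1:46303548-46303697, plus strand: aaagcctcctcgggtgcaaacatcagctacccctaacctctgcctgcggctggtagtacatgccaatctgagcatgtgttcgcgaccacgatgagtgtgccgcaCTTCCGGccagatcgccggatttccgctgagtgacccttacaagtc

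Promoter windows of 250 bases before the start were found for 74 of the 89 members, and both strands were searched. The ETS core, bound by GABP among other factors, was in 18 of the 74 member windows (24.3%), against 8.82% of 27305 annotated windows. The NRF1 motif was in 14 of 74 (18.9%), against 5.53% of all windows. The annotated windows were not matched to those of the members in gene type or base composition. Both motifs were found in windows of all 5 complexes. A full p53 response element without mismatch was in 0 of 74 windows, against 0.0293% of all windows, which says only that these letters are not in these stretches.

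With p53 on, as against p53 off, most respiratory chain transcripts differed little. The median difference of the 78 tested subunits was 0.05 log2 units (0.09 and 0 in the experiments), beside 0.02 over all 14025 genes tested. The median size of a difference was 0.19 log2 units for the 86 members and 0.25 for all genes. Of the members, 7 differed by over 0.5 log2 units in either direction (8.14%, beside 22% of all genes). Limma called 0 members higher and 0 lower at an adjusted p under 0.05, where it called 0.898% of all genes higher, 0.585% lower and 1.48% in either direction. At an unadjusted p under 0.05 the fit passed 3 members, NDUFV3, NDUFS7 and ATP5G3, beside 15.4% of all genes. With experiment as a replicate block, limma called 1 member higher (NDUFV3, beside 5.18% of all genes) and 0 lower (beside 6.28%), and 7 members passed an unadjusted p under 0.05, beside 26.7%. The 95% interval from the blocked fit lay within 1 log2 unit of 0 for 82 of the 86 members, beside 80.6% of all genes.

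NDUFV3, an accessory subunit of the NADH-oxidising tip of the complex I matrix arm, was the member with the largest difference. Its log2 signal was 6.09 and 5.91 with p53 off, 6.96 and 6.92 with p53 on, and 6.11 and 6.35 with p53 on then off. Both arrays with p53 on lay above all 4 others. The difference with p53 on was 0.94 ± 0.20 log2 units over p53 off (1.92-fold, adjusted p = 0.084 by limma without the block and 0.0143 with it). The difference was 0.87 in experiment 1 and 1.01 in experiment 2. With the block the call held in 5 of 6 fits that each left out 1 array, and without experiment 2's array with p53 off the adjusted p was 0.0999. After recovery NDUFV3 was lower than with p53 on by 0.85 and 0.57 log2 units, and this second step did not pass the test (limma, adjusted p = 0.207 without the block and 0.0512 with it). Recovery ended 0.02 and 0.44 log2 units above p53 off.

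Most single probe sets of NDUFV3 differed in the same direction as the gene value. Of 8 probe sets, 7 were higher with p53 on than with p53 off in both experiments, by 0.31 to 1.14 log2 units. The fifth in ID order differed by -0.06 and 0.24 log2 units. In recovery against p53 on, 7 of 8 were lower in both experiments. These 7 differed by -1.1 to -0.49 log2 units in experiment 1 and by -1.19 to -0.01 in experiment 2. In experiment 2 probe sets 4 and 7 differed by only -0.09 and -0.01 and stayed 0.88 and 0.73 above p53 off. A further 3 probe sets that carry NDUFV3 together with another symbol were not used.

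**Figure D1:**
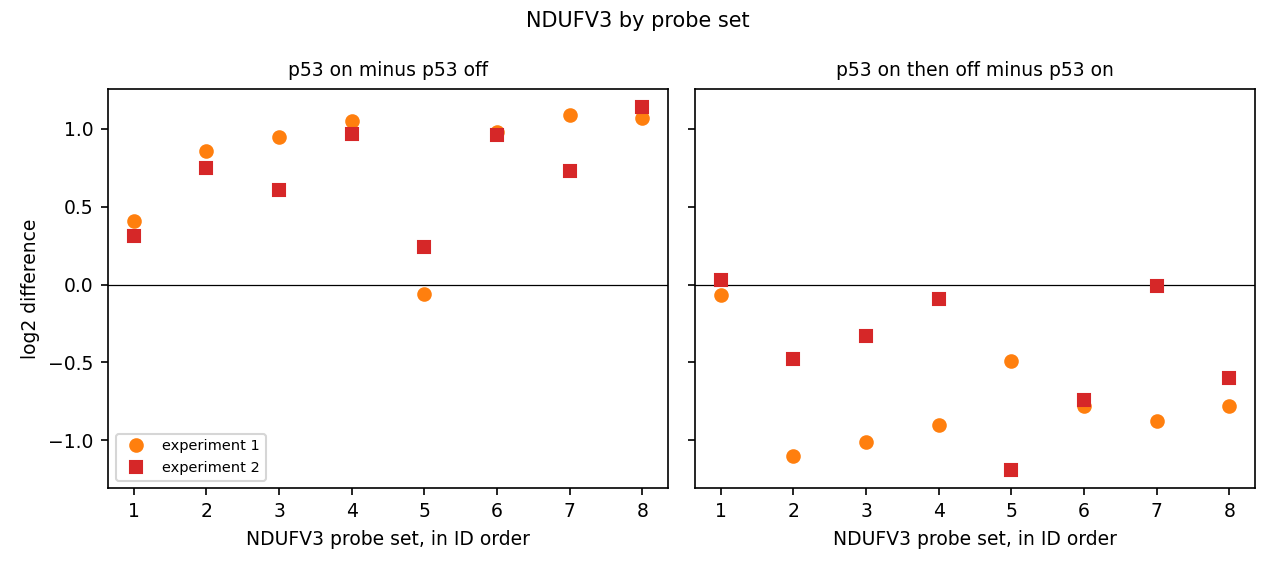
Log2 differences of the 8 NDUFV3 probe sets, in ID order along the x axis, for p53 on minus p53 off (left) and p53 on then off minus p53 on (right). Circles are experiment 1 and squares experiment 2: 7 of 8 probe sets lie above 0 in both experiments on the left, and 7 of 8 lie below 0 in both on the right.

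By complex, the medians with p53 on against p53 off stayed within 0.2 log2 units of 0 in each experiment. They were 0.05 and -0.09 for complex I, 0.12 and 0.09 for complex II, 0.10 and 0.01 for complex III, 0.19 and 0.10 for complex IV, and 0.09 and -0.02 for complex V. The sign was the same in both experiments for complexes II, III and IV, and opposite for complexes I and V. Over all members, 34 were higher in both experiments (39.5%, beside 33.4% of all genes), 22 lower in both (25.6%, beside 31.6%) and 30 had opposite signs (34.9%, beside 34.9%). In all, 11 members had both arrays with p53 on above both with p53 off (12.8%, beside 22.6%) and 4 had both below (4.65%, beside 20.6%).

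**Figure D2:**
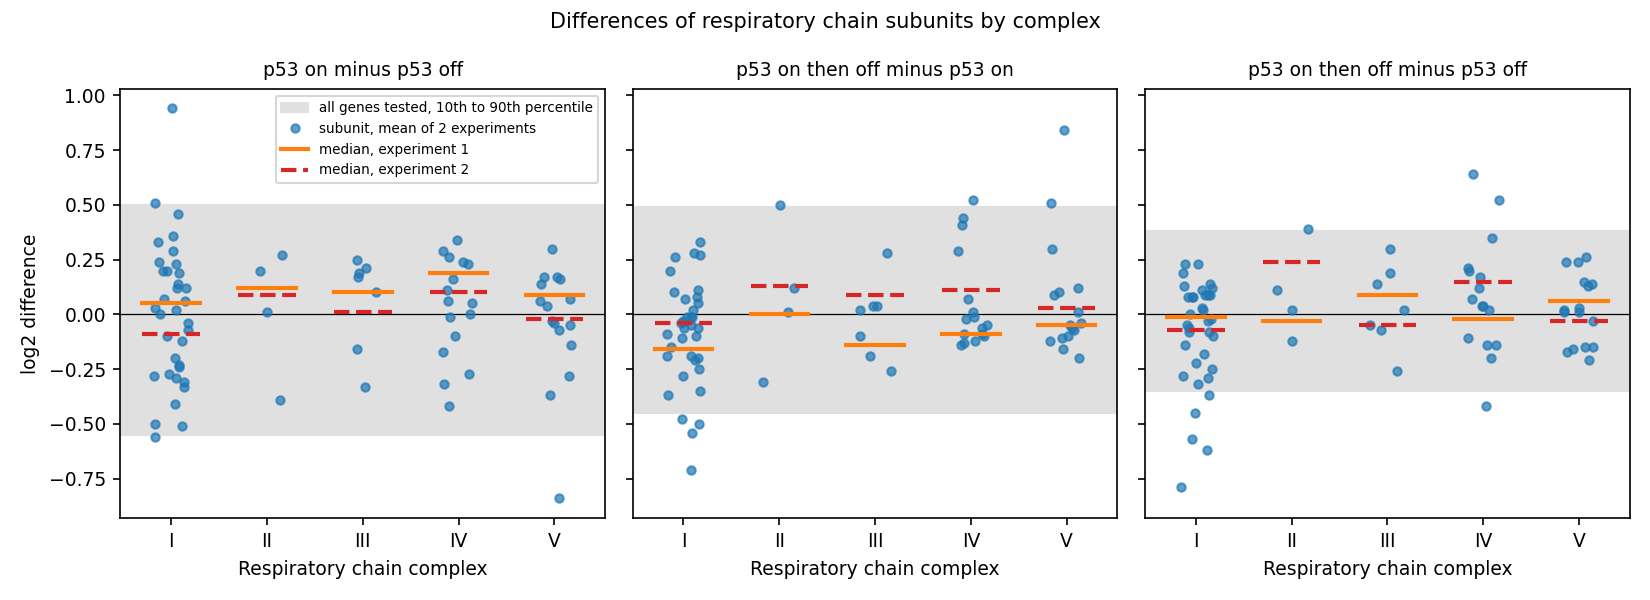
Log2 differences of the tested subunits by complex for p53 on minus p53 off, p53 on then off minus p53 on, and p53 on then off minus p53 off. Points are subunits (mean of both experiments), lines are the medians of experiment 1 (solid) and experiment 2 (dashed), and the grey band spans the 10th to 90th percentile of all genes tested: most points lie inside the band, with NDUFV3 highest (0.94) and ATP5G3 lowest (-0.84) in the first panel.

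Within complex I, 14 subunits were higher and 10 lower with p53 on in both experiments. The matrix arm, which takes up electrons from NADH, had medians of 0.10 and -0.21 log2 units over 15 subunits, and the membrane arm, which pumps protons, 0.05 and 0 over 19. Beside NDUFV3, the iron-sulfur subunit NDUFS7 had 5.70 and 5.75 with p53 on and 5.31 and 5.23 with p53 off, groups that did not overlap. Its difference was 0.46 ± 0.19 log2 units and did not pass the test (limma, adjusted p = 0.32). The lowest complex I subunit with p53 on was NDUFB10, an accessory subunit of the membrane arm, at 6.56 and 6.32 with p53 on against 7.22 and 6.78 with p53 off. The groups did not overlap, 5 of its 6 probe sets were lower in both experiments, and the difference of -0.56 ± 0.26 log2 units did not pass the test (limma, adjusted p = 0.383, and 0.0736 with the block).

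Complex II, succinate dehydrogenase, also works in the tricarboxylic acid cycle. Its flavoprotein SDHA differed by 0.20 ± 0.25 log2 units with p53 on over p53 off, its iron-sulfur protein SDHB by 0.01 ± 0.28, and its membrane anchors SDHC and SDHD by -0.39 ± 0.50 and 0.27 ± 0.40. None of the 4 passed the test, with adjusted p between 0.795 and 0.991 by limma. SDHC was 6.65 and 5.51 with p53 on and 7.09 and 5.85 with p53 off, and SDHD was 7.70 and 6.95 against 7.48 and 6.65. The groups overlapped for both anchors, although each differed the same way in both experiments.

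In complex III the highest subunit with the same sign in both experiments was the core protein UQCRC2, at 0.41 and 0.01 log2 units with p53 on over p53 off. The Rieske iron-sulfur protein UQCRFS1 had a larger mean, 0.25 log2 units, from -0.36 and 0.87. The lowest was UQCRB, the subunit beside the ubiquinone site, at -0.36 and -0.30. In complex IV the highest was COX7A2L, the joining factor counted there, at 0.24 and 0.44 log2 units. All 7 of its probe sets were higher with p53 on in both experiments. The next highest was the subunit COX8A, at 0.40 and 0.17. The lowest was COX4I1, a subunit through which ATP regulates the enzyme, at 6.12 and 6.05 with p53 on and 6.53 and 6.49 with p53 off. COX4I1 had groups that did not overlap and a difference of -0.42 ± 0.29 log2 units (limma, adjusted p = 0.569). Its probe sets disagreed, with 4 of 9 higher and 2 of 9 lower in both experiments.

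In complex V the F1 head and the Fo and stalk subunits had medians of 0.16 and -0.05 log2 units with p53 on over p53 off, a difference that was not tested. Of 5 F1 subunits 4 were higher in both experiments, by 0.03 to 0.22 log2 units: ATP5A1, ATP5B, ATP5D and ATP5E. These make up the catalytic sites (alpha and beta) and the central stalk (delta and epsilon). None passed the test, with adjusted p of 0.754 to 0.947 by limma. Of 11 Fo and stalk subunits, 3 were higher in both experiments and 6 lower.

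ATP5G1, ATP5G2 and ATP5G3 (now ATP5MC1, ATP5MC2 and ATP5MC3) encode the same mature c subunit of the rotating Fo ring behind different import sequences, and these data gave them different values. ATP5G3 had 5.85 and 6.55 with p53 off, 5.49 and 5.24 with p53 on, and 6.23 and 6.18 with p53 on then off. Both arrays with p53 on were below all 4 others. Its difference with p53 on was -0.84 ± 0.27 log2 units against p53 off (limma, adjusted p = 0.205, and 0.0556 with the block), at -0.36 in experiment 1 and -1.31 in experiment 2. In recovery it was 0.75 and 0.94 log2 units above p53 on (limma, adjusted p = 0.258, and 0.0711 with the block). Its probe sets disagreed: 7 of 12 were lower with p53 on in both experiments and 1 was higher, and in recovery 4 were higher and 4 lower. Taken as the mean of its probe sets, the difference with p53 on was -0.24 log2 units.

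ATP5G1 had 7.14 and 6.57 with p53 off, 6.77 and 6.20 with p53 on, and 7.17 and 6.82 with p53 on then off. In each experiment p53 on was lowest, by 0.37 and 0.38 log2 units below p53 off and by 0.40 and 0.62 below recovery. Of its 6 probe sets, 5 were lower with p53 on and 5 were higher after recovery, in both experiments. Neither step passed the test (limma, adjusted p = 0.648 for p53 on against p53 off and 0.581 for recovery against p53 on). ATP5G2 differed by 0.26 and 0.02 log2 units with p53 on over p53 off. The 3 genes share coding sequence and have processed pseudogenes, so that cross-hybridisation between them cannot be told from these values.

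**Figure D3:**
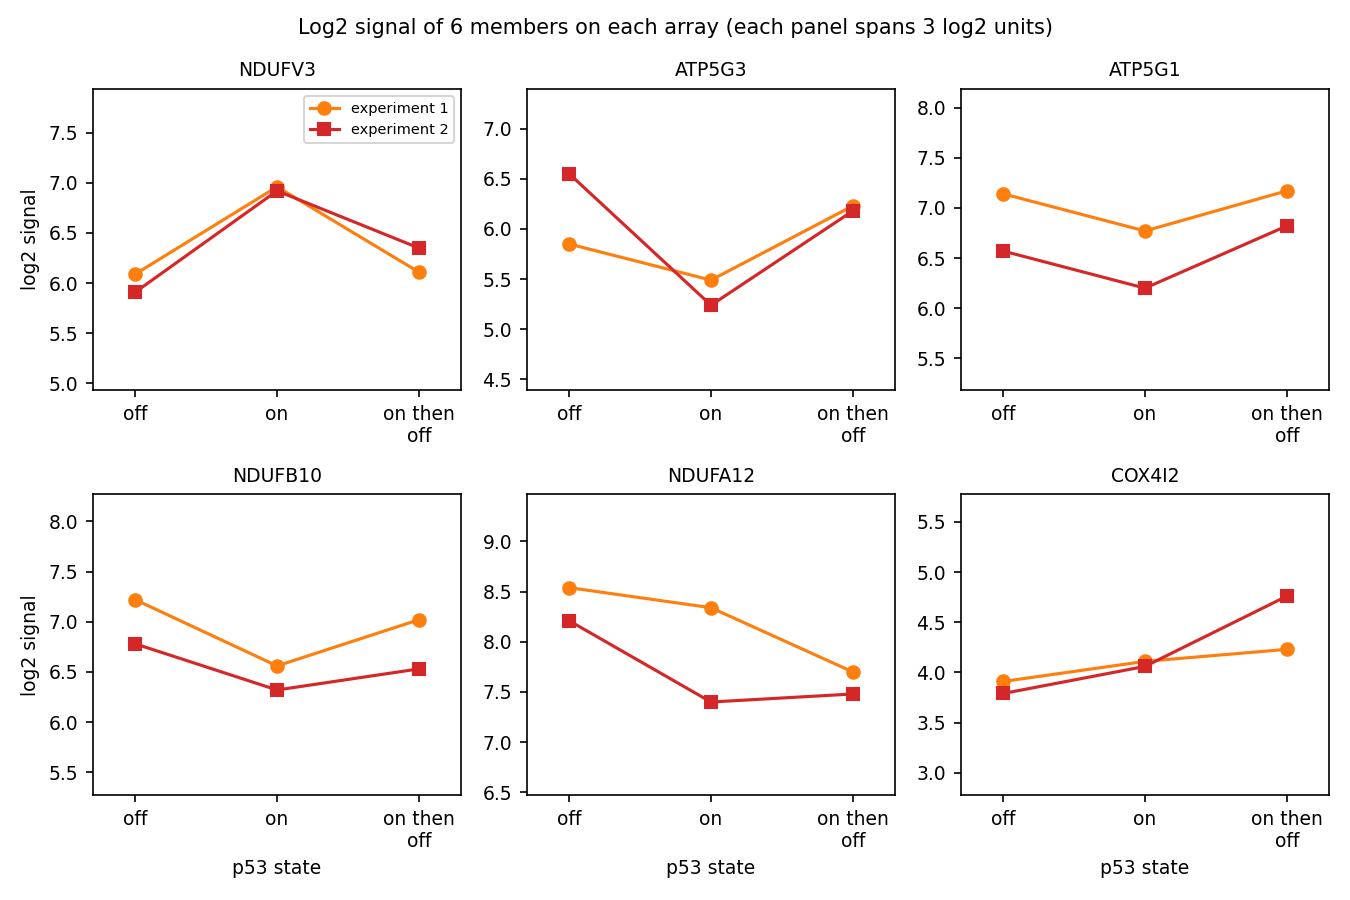
Log2 signal on each array of NDUFV3, ATP5G3, ATP5G1, NDUFB10, NDUFA12 and COX4I2 in the order p53 off, p53 on and p53 on then off, with a line per experiment (circles, experiment 1; squares, experiment 2). NDUFV3 peaks with p53 on at 6.96 and 6.92, ATP5G3, ATP5G1 and NDUFB10 are lowest there, NDUFA12 is higher with p53 off than in either other state, and COX4I2 is highest after recovery at 4.23 and 4.76.

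In recovery, p53 on then off against p53 on, limma called 0 members higher and 0 lower, without or with the block. Without it 0.143% of all genes were called higher and 0.285% lower, and with it 3.84% and 3.39%, which is 0.428% and 7.24% in either direction. At an unadjusted p under 0.05 limma passed 2 members (NDUFV3 and ATP5G3, beside 12.3% of all genes) and with the block 6 (beside 22.2%). The median over subunits was -0.05 log2 units (-0.09 and 0.01), and the median size of a member's difference was 0.11, against 0.22 for all genes. Of the 86 members, 18 were higher in both experiments (20.9%, beside 34.8%), 29 lower (33.7%, beside 31.4%) and 39 had opposite signs (45.3%, beside 33.8%). The arrays did not overlap for 4 members above (4.65%, beside 21.3%) and 6 below (6.98%, beside 18.3%), and 6 differed by over 0.5 log2 units (6.98%, beside 17.7%). The 95% interval with the block lay within 1 log2 unit of 0 for 82 members (95.3%, beside 84.5%).

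In complex I, 16 of 35 subunits were lower after recovery than with p53 on in both experiments and 5 were higher. Its medians were -0.16 and -0.04 log2 units. The membrane arm accounted for 12 of the 16, with medians of -0.18 and -0.10 over 19 subunits. An example is NDUFA10, an accessory subunit of that arm, at 6.82 and 6.74 after recovery and 7.42 and 7.11 with p53 on. Those groups did not overlap and 11 of its 16 probe sets were lower in both experiments, but the difference of -0.48 ± 0.21 log2 units did not pass the test (limma, adjusted p = 0.415).

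The other complexes had medians with opposite signs in the experiments or near 0 after recovery against p53 on, at 0 and 0.13 log2 units for complex II, -0.14 and 0.09 for complex III, -0.09 and 0.11 for complex IV and -0.05 and 0.03 for complex V. Their outermost members that moved one way in both experiments were SDHC at 0.14 and 0.86 and SDHA at -0.20 and -0.43 in complex II. In complex III they were UQCRB at 0.44 and 0.11 and UQCRH, the hinge protein next to cytochrome c1, at -0.28 and -0.24. In complex IV they were COX4I2 at 0.12 and 0.70 and COX5B at -0.27 and -0.01, and in complex V ATP5G3, given above, and the F1 gamma subunit ATP5C1 at -0.36 and -0.03. None passed the test by limma without or with the block. The probe sets of UQCRB disagreed here too, with 1 of 7 higher and 2 of 7 lower in both experiments.

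The last comparison set the cells after recovery against those without p53 activation. Against p53 off, p53 on then off gave a median of 0.02 log2 units over subunits (0.01 in each experiment), and limma called 0 members without or with the block. Over all genes that comparison also had few calls, 0.0285% higher and 0% lower without the block, and 0.207% higher, 0.392% lower and 0.599% in either direction with it. At an unadjusted p under 0.05 limma passed 2 members (beside 5.32%) and with the block 7 (beside 13%). Both experiments agreed in sign for 25 members above p53 off (29.1%, beside 33.4%) and 20 below (23.3%, beside 27.6%), with opposite signs for 41 (47.7%, beside 39%). The arrays did not overlap for 9 members above (10.5%, beside 20.4%) and 3 below (3.49%, beside 14.5%), and 6 differed by over 0.5 log2 units (6.98%, beside 9.63%). The 95% interval with the block lay within 1 log2 unit of 0 for 81 members (94.2%, beside 91.4%). The comparisons share arrays, so that a member high with p53 on tends to be high in one and low in the next.

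By gene value, the member farthest from its starting level was NDUFA12, an accessory matrix arm subunit of complex I. It was at 8.54 and 8.21 with p53 off, 8.34 and 7.40 with p53 on, and 7.70 and 7.48 with p53 on then off. Both recovery arrays lay below both arrays with p53 off. The difference of -0.79 ± 0.33 log2 units did not pass the test (limma, adjusted p = 0.935, and 0.169 with the block), and 6 of 7 probe sets were lower in both experiments. Of these, probe sets 1 and 2 in ID order were dim, at 0.03 to 2.67 with p53 off and after recovery. Probe sets 3, 4, 5 and 6 differed by -0.28 and -0.73, -0.43 and -0.17, -0.97 and -0.34, and -0.20 and -0.07. In experiment 1 the median lay on probe set 3 with p53 off and on probe set 5 after recovery, which enlarged the difference of the gene value. The largest in the other direction was COX4I2, the isoform of COX4 found mainly in lung, at 3.91 and 3.79 with p53 off, 4.11 and 4.06 with p53 on, and 4.23 and 4.76 with p53 on then off. Both recovery arrays lay above all others. The difference over p53 off was 0.64 ± 0.24 log2 units (limma, adjusted p = 0.876), at a signal close to the dim filter of 3.62, and 3 of 6 probe sets were higher in both experiments.

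Tissue-restricted isoforms of complex IV were compared with their common partners, each gene only with itself across states. COX6A1, the common COX6A, had 9.45 and 9.03 after recovery against 8.99 and 8.44 with p53 off. Those groups did not overlap and all 7 of its probe sets were higher in both experiments, but the difference of 0.52 ± 0.34 log2 units did not pass the test (limma, adjusted p = 0.997). COX6A2, the heart and muscle form, differed by -0.11 ± 0.20 in the same comparison. COX7A1, the muscle form of COX7A, differed by 0.16 ± 0.21 with p53 on over p53 off, and COX7A2 by 0.11 ± 0.97. COX6B1 differed by 0.05 ± 0.37, COX7B by -0.27 ± 0.87, COX8A by 0.29 ± 0.64, NDUFA4 by -0.10 ± 0.59 and NDUFA4L2, which hypoxia is known to raise, by 0.06 ± 0.21. With the block the errors were smaller, at 0.24 for COX7A2, 0.18 for COX6B1, 0.19 for COX7B, 0.17 for COX8A and 0.20 for NDUFA4. The filtered isoforms COX6B2, COX7B2 and COX8C had log2 signals between 1.75 and 3.84 over the 6 arrays.

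Among the 8 members that are no subunits, ATP5S, also named factor B, was 5.18 and 4.80 with p53 on and 4.61 and 4.23 with p53 off. Its groups did not overlap, and its difference of 0.57 ± 0.28 log2 units did not pass the test (limma, adjusted p = 0.395). The complex I assembly factor NDUFAF4 was 0.18 and 1.03 log2 units higher after recovery than with p53 off (limma, adjusted p = 0.999). For these 8 the median with p53 on was 0.09 log2 units over p53 off.

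Related genes outside the symbol rule were read against the same shares over all genes. Of 35 assembly factors measured, limma called 0 with p53 on against p53 off (beside 1.48% of all genes). With the block it called 0 higher (beside 5.18% of all genes) and 2 lower (5.71%, beside 6.28%), a share near that of all genes. The 35 include the array symbol CSRP2BP, matched to PET117 by synonym alone, which may stand for a gene that is no assembly factor. BCS1L, which inserts the iron-sulfur protein into complex III, was 0.69 and 1.09 log2 units lower with p53 on (limma with the block, adjusted p = 0.0174) and 0.84 and 0.99 higher in recovery against p53 on (adjusted p = 0.0218). C1orf31, now COA6, which serves copper delivery to complex IV, was 0.66 and 0.68 log2 units lower with p53 on (limma with the block, adjusted p = 0.0412). C3orf1, now TIMMDC1, a complex I assembly factor, was higher in recovery than with p53 on by 0.73 and 0.89 (adjusted p = 0.0397 with the block). With BCS1L that made 2 of 35 higher in recovery (5.71%, beside 3.84%) and 0 lower (beside 3.39%). None of these calls held without the block, where the adjusted p lay between 0.172 and 0.672.

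Coenzyme Q carries electrons from complexes I and II to complex III. Of 13 genes of its synthesis limma called 1 higher with p53 on than with p53 off (beside 0.898% of all genes), CABC1 (now COQ8A), a kinase-like protein of the pathway, by 1.74 ± 0.23 log2 units (adjusted p = 0.0245, and 0.00155 with the block). COQ5, a methyltransferase of the same pathway, was lower by 1.33 and 1.27 log2 units, a call made with the block alone (limma, adjusted p = 0.00322 with it and 0.0948 without). With the block, 1 of 13 was thus higher (7.69%, beside 5.18%) and 1 lower (7.69%, beside 6.28%). In recovery against p53 on, the block gave 1 of 13 lower (7.69%, beside 3.39%) and 0 higher (beside 3.84%). Among 17 tricarboxylic acid cycle genes limma called 0 without the block (beside 1.48% of all genes). With the block it called IDH2, a mitochondrial isocitrate dehydrogenase, higher with p53 on by 0.68 and 1.20 log2 units (adjusted p = 0.0293) and OGDH, a subunit of the oxoglutarate dehydrogenase complex, lower by 0.82 and 0.83 (adjusted p = 0.0175). These are 1 call in each direction, beside 5.18% higher and 6.28% lower over all genes. OGDH was 0.99 and 0.87 log2 units higher in recovery than with p53 on (limma with the block, adjusted p = 0.0155). That was 1 of 17 higher (5.88%, beside 3.84% of all genes) and 0 lower (beside 3.39%).

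Among 11 mitochondrial or metabolic genes linked to p53, limma called 4 higher with p53 on than with p53 off (beside 0.898% of all genes) and 0 lower (7 higher with the block, beside 5.18%). These 4 were RRM2B (2.85 log2 units), C12orf5, now TIGAR (2.50), PRKAB1 (2.31) and FDXR (1.76), which serve nucleotide supply, glycolysis, AMP-activated kinase and mitochondrial electron transfer to steroid and iron-sulfur enzymes. With the block SESN1, a stress-induced inhibitor of growth signalling, was also called (2.77 log2 units, adjusted p = 0.000367, and 0.0582 without the block). This list was drawn up from known p53 targets. SCO2, also on the list, was not called, with differences of 0.20 and 0.15 log2 units (limma, adjusted p = 0.745). Limma called 0 of 15 transcriptional regulators without the block (beside 1.48% of all genes) and 0 with it (beside 11.5%). NRF1 itself differed by 0.66 and 0.19 log2 units and the mitochondrial genome factor TFAM by -0.38 and -0.83. The coactivator PPARGC1A lay below the dim filter, with log2 signals of 2.55 to 3.35. Cytochrome c1 (CYC1) and cytochrome c (CYCS), the partners that carry electrons in and after complex III, differed by 0.08 and -0.49 log2 units with p53 on over p53 off, and neither passed the test.

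The median size of a member's difference was 0.45 log2 units between the experiments and 0.19 between p53 on and p53 off. In experiment 2 the median member was 0.44 log2 units lower than in experiment 1, where the median over all genes was -0.02. This held in each state, with member medians of -0.44 with p53 off, -0.48 with p53 on and -0.36 with p53 on then off. The experiment term of the blocked limma fit called 35 of 86 members lower (40.7%, beside 9.94% of all genes) and 0 higher (beside 2.72%). Of the members, 60 were lower in all 3 states (69.8%, beside 28.8%) and 10 were higher (11.6%, beside 20%). For 69 of 86 members (80.2%) the difference between experiments was larger than that between p53 on and p53 off, as for 45.3% of all genes. This comparison was added after the data had been seen, and what separated the experiments is not given in the labels. Each side was a single experiment measured in all 3 states. The calls and p-values of this comparison, here and below, therefore measure the spread of the difference over states. They do not measure the spread between repeated experiments.

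The difference between the experiments was spread over all 5 complexes. The medians of experiment 2 minus experiment 1 were -0.46 log2 units for complex I, -0.61 for complex II, -0.46 for complex III, -0.69 for complex IV and -0.30 for complex V. Limma called lower 15 of 35 subunits of complex I, 2 of 4 of complex II and 2 of 7 of complex III. In complex IV it called lower 10 of 16 and in complex V 3 of 16, where 9.94% of all genes were called lower. A total of 18 members were lower by over 1 log2 unit, beside 2.8% of all genes, and 0 were higher by as much. The 18, the complex I calls and the counts of lower members above include NDUFS4, which passed the dim filter only through experiment 1.

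The lowest members are given with their array values. NDUFS4, an accessory subunit of the complex I matrix arm, had 2.56, 2.23 and 2.67 in experiment 2 and 5.46, 5.70 and 5.41 in experiment 1, in the order p53 off, p53 on and p53 on then off. The experiment 2 values lay below the dim filter of 3.62 on all 3 arrays, so NDUFS4 passed the filter through experiment 1, and the size of its difference is not given. UQCRH had 5.83, 5.83 and 5.60 in experiment 2 and 7.88, 8.25 and 7.97 in experiment 1, a difference of -2.28 ± 0.15 (limma, adjusted p = 0.000178). For both genes no array of one experiment reached the range of the other. NDUFB4 had 3.81, 4.18 and 3.37 in experiment 2, 1 array of them below the filter value, and 6.31, 6.65 and 6.46 in experiment 1. The complex IV subunits COX7C, COX6C, COX7A2 and COX7B, which surround its catalytic core, differed by -2.07, -2.01, -2.01 and -1.82. COX7B was measured on 1 probe set.

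Other members were level between the experiments or higher in experiment 2. NDUFV3 differed by 0 ± 0.15 log2 units and the F1 beta subunit ATP5B by 0.08 ± 0.14. The F1 delta subunit ATP5D was higher in experiment 2 in all 3 states, by 0.38, 0.45 and 0.50 log2 units, and did not pass the test (limma, adjusted p = 0.0689). Across the 86 members, the difference between experiments had a Spearman correlation of 0.238 with the number of probe sets and 0.0266 with the mean log2 signal, against -0.0335 and -0.173 over all 14025 genes. These values share the same arrays and are given as a description.

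**Figure D4:**
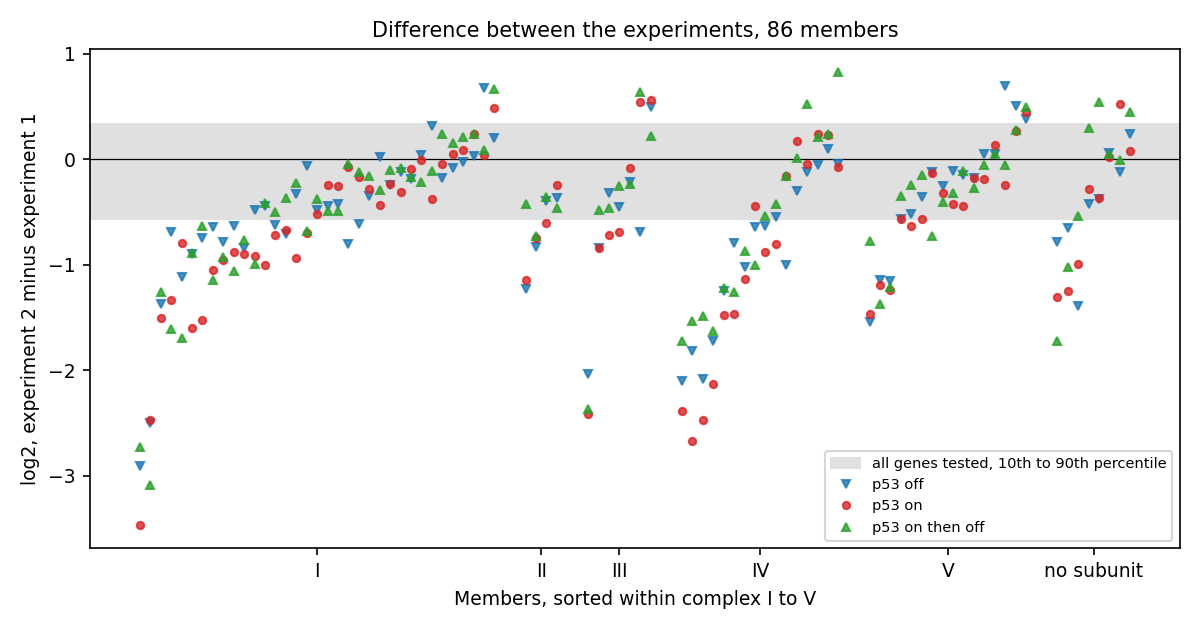
Log2 signal of experiment 2 minus experiment 1 for the 86 tested members, sorted by their mean within complexes I to V and the genes that are no subunits, with a mark for each p53 state (p53 off, p53 on, p53 on then off). The grey band spans the 10th to 90th percentile of all genes tested: 60 members lie below 0 in all 3 states and 18 have a mean below -1. Both counts include NDUFS4, which passed the dim filter only through experiment 1.

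Other lists of housekeeping genes also had medians below 0 between the experiments. Cytosolic ribosomal protein genes had a median of -0.65 log2 units in experiment 2 against experiment 1, with 42 of 72 called lower by limma. Mitochondrial ribosomal protein genes had -0.37 (26 of 75) and proteasome subunit genes -0.36 (13 of 37). Assembly factors had -0.21 (8 of 35). The tricarboxylic acid cycle had -0.19, with 2 of 17 called lower (11.8%), near the 9.94% of all genes, where the shares of the other lists were 58.3%, 34.7%, 35.1% and 22.9% in the order given. The part of array or RNA quality in this shift was not tested. Since every p53 state was present in both experiments, the comparisons between states above were also taken within each experiment.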

How the data were processed

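Total RNA of 6 samples (2 per group) was labelled from 100 ng and hybridised to Affymetrix Human Gene 1.0 ST arrays, per the labels. Each deposited value is the log2 signal of an exon-level probe set (the scale was taken from the range of values). The sources used here name no program, background correction or normalization. Array medians lay between 5.24 and 5.31, so they were used unscaled. No detection call comes with the values, and the number of arrays limits the precision.

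Of 257430 probe sets, 224320 with 1 symbol were used. A gene's value was their median, and genes in the lowest 25% by mean (log2 3.62 or less) were left out, leaving 14025. All 6 arrays entered 1 fit by limma 3.58.1 (R 4.3.3) with the 3 groups as a factor, with Benjamini-Hochberg adjustment over all genes tested and a call at an adjusted p under 0.05. Exact permutation of 2 against 2 arrays could not reach it for any gene. The code of the fit was run on data simulated with independent normal noise from limma's own variance model. Such data meet the model by construction, so that check does not show how well it holds for these arrays. The experiment number in the labels was taken to pair the arrays: same-numbered arrays deviated together, with correlations across genes of 0.496, 0.551 and 0.63. Across the members alone they were 0.881, 0.821 and 0.882. Values with this replicate block are printed where they bear on a call.

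The members and lists were chosen with earlier results of these data known, so lists are described by counts and medians and not tested. Named are members called in either fit, the outermost subunit of each complex and direction that moved alike in both experiments, isoform pairs, complex II, the c subunits and called genes of related lists. ATP5S, COX6A1, NDUFA10, NDUFAF4, NDUFS7 and the genes of the experiment comparison were picked after their values were seen. Alternatives covered filters, probe set summary, normalization, fit options and arrays left out.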

Additional observations from a re-analysis of the deposited data

How the results depend on the processing

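Arrays in pairs and a shift between the experiments limit these results: with the replicate block the spread falls and calls appear that the fit without it does not make. The replicate block gave 1 call higher with p53 on than with p53 off, NDUFV3, which stayed at 1 call in the 6 combinations of the block with another filter, probe set summary or normalization, all added after seeing the data. NDUFV3 itself had an adjusted p between 0.00293 and 0.0391 in those 6. With the block and 1 array left out, the calls higher with p53 on numbered 0 to 2, those lower 0 to 1, those higher in recovery 0 to 2 and those lower in recovery 0 to 1. The second upward call, UQCRFS1, came without experiment 1's array with p53 off. Lower calls with p53 on numbered 2 with the block and the lowest 50% left out (ATP5G3, NDUFB10), 3 with the mean of probe sets (NDUFA2, NDUFB10, NDUFB3) and 1 with dim probe sets left out (ATP5G3). Recovery against p53 on had 1 higher call (ATP5G3) with the lowest 50% left out and 3 (NDUFAF1, NDUFB3, SDHC) with the mean of probe sets, and 1 lower call (NDUFV3) in 5 of those 6 combinations. Without the block every setting gave 0 member calls in all 3 comparisons, and p53 on then off against p53 off gave 0 in each of 27 settings with or without it.

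Medians by complex were small, and some moved by about their own size or changed sign. Over the mean of both experiments, the medians with p53 on against p53 off were 0.11 log2 units for complex II, 0.17 for complex III, 0.06 for complex IV and 0 for complex V. With p53 on against p53 off, complex II had 0.01 with the mean of probe sets and 0.14 with median centring, complex III -0.03 with the mean, complex IV 0 with the lowest 50% left out and -0.01 with dim probe sets left out, and complex V 0.12 with the mean. Leaving out each experiment gave the ranges -0.09 to 0.05 for complex I, 0.01 to 0.10 for complex III, 0.10 to 0.19 for complex IV and -0.02 to 0.09 for complex V. In recovery against p53 on those ranges were -0.16 to -0.04 for complex I, -0.09 to 0.11 for complex IV and -0.05 to 0.03 for complex V. Against p53 off, recovery gave a subunit median of 0 to 0.03 over 8 settings (0.03 with all members, 0 with the mean, 0.01 with quantile normalization and 0.02 in the others that moved) and 0.01 without either experiment, and complex V had 0.09 with the mean. The cause of these moves was not tested. The member median of experiment 2 minus experiment 1 lay between -0.46 and -0.39 in 6 settings.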

Other observations

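The complex I subunit NDUFA13, also known as GRIM-19, was measured on 8 probe sets that carry it together with another symbol, so it was no member. The median log2 signal of these probe sets was 6.54 and 5.81 with p53 off, 6.71 and 5.87 with p53 on, and 6.41 and 6.04 with p53 on then off, in experiments 1 and 2. With p53 on the value was 0.18 and 0.06 log2 units above p53 off, and it was lower in experiment 2 than in experiment 1 in all 3 states. A further 9 genes encode chain subunits, regulators or assembly factors whose current symbols meet the prefixes but which the array lists under older names. Of these, 8 passed the dim filter, with a median of 0.02 log2 units for p53 on over p53 off. Limma called 0 of the 8 without the block (beside 1.48% of all genes) and 0 with it (beside 11.5%). Among them USMG5 (now ATP5MK), a small membrane subunit of complex V, had 6.80, 6.28 and 6.27 in experiment 2 and 7.80, 7.81 and 7.88 in experiment 1, in the order p53 off, p53 on and p53 on then off. No array of experiment 2 reached the range of experiment 1 for this gene, chosen after its values were seen.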
